A study of Mus musculus with 19 samples.

Results

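Nonsense-mediated mRNA decay (NMD) factors were followed here as a group of 9 genes, Upf1, Upf2, Upf3a, Upf3b, Smg1, Smg5, Smg6, Smg8 and Smg9. They were chosen by name, with earlier results of these data known. All 9 were found among the 39017 genes of the deposited tables and among the 13926 genes tested. The data are from translating ribosome affinity purification (TRAP), in which ribosomes carrying a tagged protein are pulled out of 1 kind of cell and the mRNA on them is sequenced. The tissue was the striatum of female mice on a C56BL/6J background, with 4 libraries in each of 4 groups. Old D1 mice carried the Drd1::EGFP-L10a transgene and were 2 years old, and young D1 mice carried the same transgene at 42 days. Old D2 mice carried Drd2::EGFP-L10a at 2 years, and young D2 mice carried it at 42 days. The tag, ribosomal protein L10a fused to green fluorescent protein, was present in every group, so no group lacked it. Its place in the brain follows the dopamine receptor gene that drives it, so a D1 or D2 library holds the mRNA of every striatal cell in which that driver is on. Libraries of 1 group are biological replicates according to the design text, and the labels name no batch, litter or day of preparation, so such a grouping and age cannot be told apart.

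NMD is the pathway by which cells find and destroy mRNAs whose translation stops too early, as well as a set of normal mRNAs with such features. UPF1 is the RNA helicase at its centre. UPF2 and UPF3A or UPF3B link UPF1 to the exon junction complex, the mark that splicing leaves near each exon junction, and SMG1 is the kinase that phosphorylates UPF1, held in check by SMG8 and SMG9. SMG5 binds phosphorylated UPF1 and helps to return it to its unphosphorylated state, and SMG6 is the endonuclease that cuts the target. UPF3B matters in the brain, since loss-of-function variants of the human gene cause intellectual disability. Many NMD factor mRNAs are themselves NMD targets, which is known as a feedback loop of the pathway.

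Sequences from 3 promoters are shown because Upf2, Upf3b and Smg5 are the members whose level changed with age in D1 neurons. Each is the 250 bases before the annotated start, 5′ to 3′ on the gene's own strand, from RefSeq on build GRCm38.p6, at chr2:5951219-5951468 (plus strand), chrX:37110323-37110572 (minus strand) and chr3:88336010-88336259 (plus strand). Capitals mark TCGCGAGA or its reverse complement TCTCGCGA, a motif chosen after the members' sequences had been seen.
Upf2: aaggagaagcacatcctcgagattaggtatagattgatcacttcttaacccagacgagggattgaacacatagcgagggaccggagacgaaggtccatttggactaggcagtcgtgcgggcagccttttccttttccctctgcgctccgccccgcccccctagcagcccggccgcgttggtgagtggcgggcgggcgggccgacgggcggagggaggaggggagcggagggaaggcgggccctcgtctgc
Upf3b: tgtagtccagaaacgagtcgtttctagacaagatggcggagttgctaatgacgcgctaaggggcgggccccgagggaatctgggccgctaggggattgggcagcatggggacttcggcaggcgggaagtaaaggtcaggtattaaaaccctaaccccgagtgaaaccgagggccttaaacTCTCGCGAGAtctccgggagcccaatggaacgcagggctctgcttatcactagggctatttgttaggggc
Smg5: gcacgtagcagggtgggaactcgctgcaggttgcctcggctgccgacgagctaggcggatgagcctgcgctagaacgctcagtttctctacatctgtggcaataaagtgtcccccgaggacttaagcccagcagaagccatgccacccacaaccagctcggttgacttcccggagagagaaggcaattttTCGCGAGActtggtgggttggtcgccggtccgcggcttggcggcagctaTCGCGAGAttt
Upf3b holds both forms, overlapping each other, from positions -70 and -68 relative to the start, and Smg5 holds matches from -60 and -11. The same windows of Upf2 and of the 6 members whose level did not pass the test hold none. Of 27025 promoters of this length, 250 hold the motif (0.925%). Since the motif was chosen after these sequences had been seen, neither the split of the members nor this share is a test. Upf3b was higher and Smg5 lower in old D1 than in young D1. A match is a description of the letters and not a measured binding site.

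The members span a wide range of levels, which were compared as TPM, a relative abundance per transcript length that sums to the same total in each library. Upf2 was above Upf1, Upf3a, Upf3b, Smg1, Smg6, Smg8 and Smg9 in all 16 libraries, and above Smg5 in 12 of 16. Upf1, the helicase itself, was low: it lay under Upf2, Upf3a, Smg1 and Smg5 in all 16 libraries. Mean TPM of Upf1 was 2.76 ± 2.28 in old D1, 5.72 ± 2.21 in young D1, 7.75 ± 2.72 in old D2 and 4.67 ± 0.671 in young D2 (SD, n = 4 each), with 1 fragment in 1 old D1 library. In order of mean TPM, neighbouring members overlapped between libraries in nearly every step. The exceptions were Smg6 over Smg9 in old D1, Upf3a over Smg1 in young D1 and Smg5 over Upf3a in young D2. Smg5 was the member with the highest mean in young D1, and Upf2 was the highest in the other groups.

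**Figure D1:**
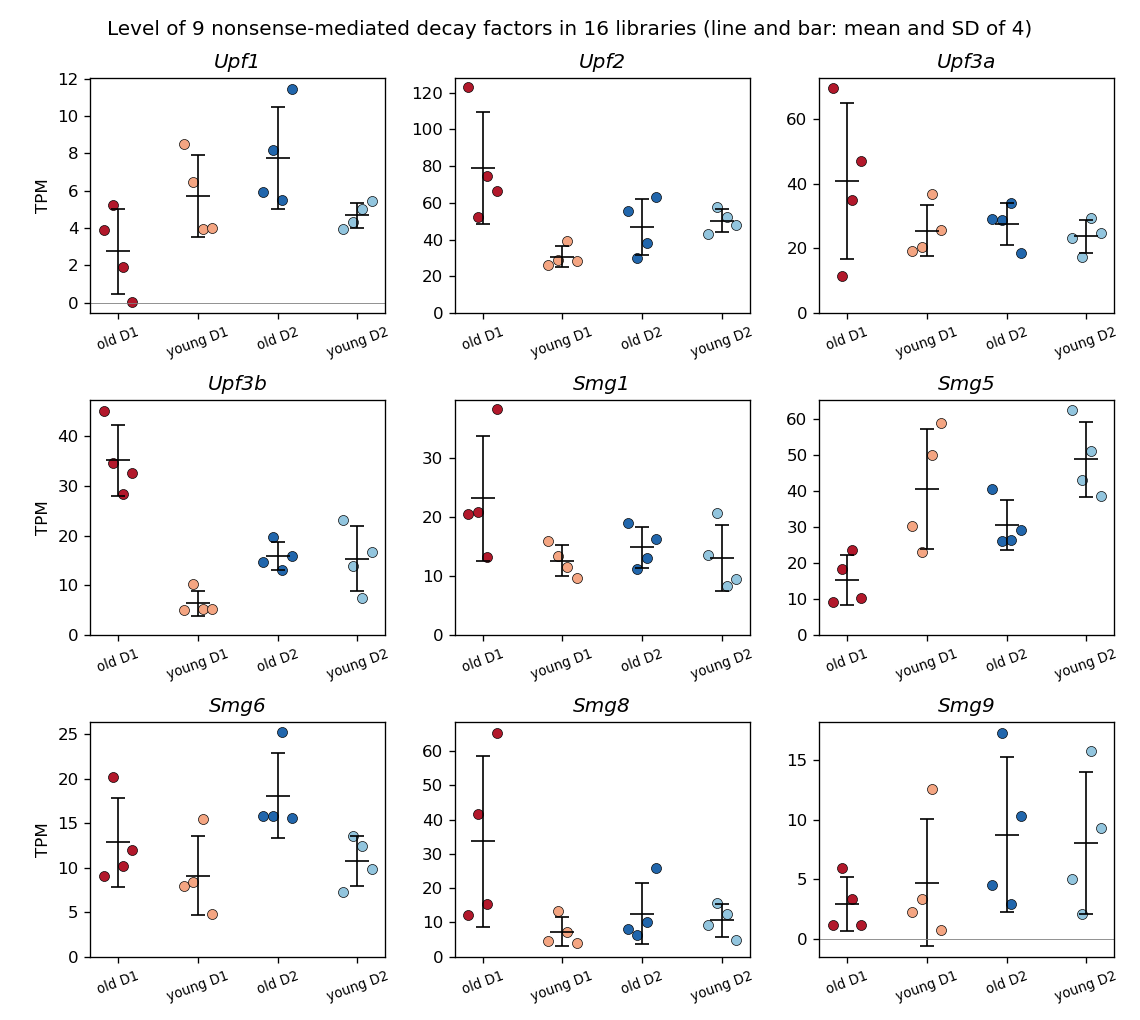
TPM of each of the 9 NMD factors, 1 panel per gene, with 1 point per library for old D1, young D1, old D2 and young D2, and the mean and SD of 4 libraries as a line and bar. Old D1 points lie above all young D1 points for Upf2 and Upf3b, while the old D1 and young D1 points of Smg5 overlap only at 23.63 and 23.08 TPM.

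In old D1 neurons Upf2 and Upf3b were higher and Smg5 was lower than in young D1 neurons, and the other 6 members did not pass the test. These 3 of 9 members (33.3%) stand beside 10.8% of all genes called in the same comparison, at an adjusted p under 0.05 in edgeR's quasi-likelihood test over 13926 genes. Since the members were chosen with earlier results of these data known, the shares are a description and no test of the group. DESeq2 called 18.7% of all genes here, and these 3 and Smg8 among the members. In TRAP libraries a change in the number of tagged cells and a change in RNA per cell cannot be told apart. The median log2 fold change of the members was 0.61, beside -0.06 for all genes tested.

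Upf3b, the X-linked adaptor to the exon junction complex (chrX:37091678-37110322, GENCODE M21 on GRCm38), changed most. It had 45.15, 34.57, 28.36 and 32.58 TPM in old D1 libraries, against 5.06, 10.19, 5.18 and 5.26 TPM in young D1 libraries. The lowest old D1 library was therefore well above the highest young D1 library. The log2 fold change was 2.14 with a standard error (SE) of 0.51 (edgeR adjusted p = 0.0109). Old D2 libraries had 14.64, 19.78, 13.18 and 15.88 TPM, against 23.18, 13.91, 7.40 and 16.73 TPM in young D2 libraries, and these ranges overlap. The 3 lowest values of the series for this gene were all in young D1.

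Upf2, the scaffold that joins UPF1 to UPF3 proteins (chr2:5951469-6056703), had 122.78, 52.49, 74.63 and 66.40 TPM in old D1, against 26.25, 29.05, 39.27 and 28.09 TPM in young D1. All 4 old D1 libraries were above all 4 young D1 libraries, and 1 old D1 library was far above the rest. The log2 fold change was 1.19 with an SE of 0.26 (edgeR adjusted p = 0.00680). Old D2 libraries had 55.44, 30.06, 38.18 and 63.25 TPM, against 43.06, 57.76, 52.46 and 47.85 TPM in young D2, with full overlap. Upf2 made up 24.3% to 41.8% of the summed TPM of the 9 members in old D1, against 19.9% to 22.8% in young D1.

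Smg5, the adaptor in UPF1 dephosphorylation (chr3:88336260-88362338), ran the other way. It had 9.15, 18.29, 23.63 and 10.20 TPM in old D1, against 30.15, 23.08, 50.00 and 58.76 TPM in young D1. The highest old D1 library was slightly above the lowest young D1 library, and the other old D1 libraries were below all of young D1. The log2 fold change was -1.54 with an SE of 0.36 (edgeR adjusted p = 0.0105). Old D2 libraries had 40.61, 26.13, 26.33 and 29.21 TPM, against 62.44, 43.10, 50.96 and 38.71 TPM in young D2. There the old group was lower in 3 of 4 libraries than every young library, but the log2 fold change of -0.77 (SE 0.36) did not pass (edgeR adjusted p = 0.827).

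Smg8 and Smg1 had higher means in old D1 without passing the test. Smg8, a regulatory subunit of the SMG1 kinase complex, had 12.22, 41.55, 15.43 and 65.25 TPM in old D1, against 4.62, 13.33, 7.16 and 3.97 TPM in young D1. One old D1 library lay within the young D1 range, and the 4 values of old D1 were widely spread. The log2 fold change was 1.62 with an SE of 0.65 (edgeR adjusted p = 0.116), and DESeq2 gave an adjusted p of 0.0437, the lowest over the 16 alternatives, which ran up to 0.284. Smg1 had 20.54, 20.78, 13.27 and 38.24 TPM in old D1, against 15.96, 13.37, 11.47 and 9.72 TPM in young D1, and 1 old D1 library overlapped. Its log2 fold change was 0.90 with an SE of 0.34 (edgeR adjusted p = 0.0992). Without old D1 replicate 4 it was 0.44 (edgeR adjusted p = 0.369), and without old D1 replicate 3 it was 1.09 and passed (edgeR adjusted p = 0.0367). The adjusted p ran up to 0.530 over the alternatives.

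The remaining 4 members overlapped between the D1 ages. Upf3a, the paralog of Upf3b, had a mean of 40.8 ± 24.2 TPM in old D1 and 25.5 ± 8.003 TPM in young D1 (SD, n = 4 each), with a log2 fold change of 0.61 (edgeR adjusted p = 0.514). Upf1 had a log2 fold change of -1.17 with an SE of 0.88 (edgeR adjusted p = 0.434). The endonuclease gene Smg6 averaged 12.9 ± 5.01 TPM in old D1 and 9.15 ± 4.49 TPM in young D1, with a log2 fold change of -0.03 (edgeR adjusted p = 0.977). For Smg6 the difference of TPM means and the fitted change of counts differ in sign. In old D1 part of its TPM lay in shorter isoforms, whose part in this was not tested. Smg9, the partner of SMG8, averaged 2.91 ± 2.27 TPM in old D1 and 4.71 ± 5.34 TPM in young D1, with a log2 fold change of 0.04 (edgeR adjusted p = 0.991).

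**Figure D2:**
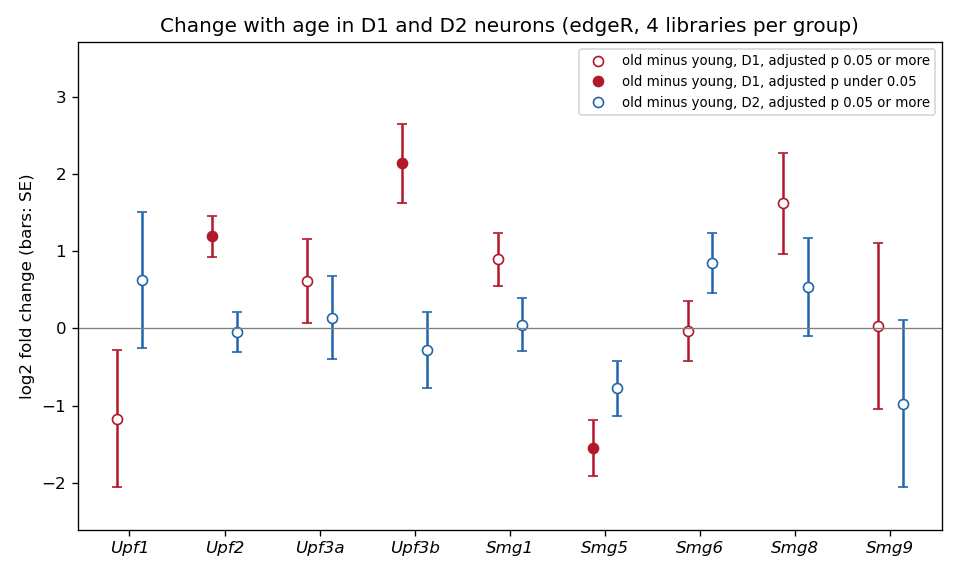
Log2 fold change of each NMD factor between old and young libraries, red for D1 and blue for D2, with SE bars and filled points where the edgeR adjusted p was under 0.05. The filled points are Upf2 (1.19), Upf3b (2.14) and Smg5 (-1.54), all in D1.

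The summed TPM of the 9 members was 205.79 to 293.58 in old D1 and 120.03 to 181.76 in young D1, with no overlap. In D2 it was 163.29 to 206.18 in old and 166.96 to 194.4 in young. The D1 sums include Upf2 and Upf3b, called higher in old D1, and Smg5, called lower, so they are no separate result. The ratio of Upf3a to Upf3b, the paralogs that can each bridge UPF2 and the exon junction complex, was looked at after the values had been seen and was not tested. It ran from 0.335 to 1.54 in old D1 and from 1.99 to 7.09 in young D1. In D2 it ran from 1.16 to 2.57 in old and from 0.995 to 3.97 in young. The D1 ranges do not overlap. Upf3b is part of the ratio, so this is no result separate from its call. The highest ratio of the series was in a young D1 library, but the 3.97 of a young D2 library lay within the young D1 range.

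In D2 neurons no member passed the test with age, where 0.079% of all genes were called. By edgeR's quasi-likelihood test, 2 of the 9 had an unadjusted p under 0.05, as did 5.75% of all genes, and DESeq2, which called 0.732% of all genes, called 0. Those were Smg5, given above, and Smg6, with 15.80, 15.80, 25.32 and 15.57 TPM in old D2, against 7.33, 13.58, 12.51 and 9.89 TPM in young D2. Each old D2 library was above every young D2 library for Smg6, with a log2 fold change of 0.85 and an SE of 0.39 (edgeR adjusted p = 0.827). Upf1 also did not overlap, at 5.94, 8.15, 5.47 and 11.44 TPM in old D2, against 3.92, 4.34, 5.01 and 5.42 TPM in young D2. Its lowest old and highest young libraries were almost level, and the log2 fold change was 0.63 with an SE of 0.88 (edgeR adjusted p = 1). The other 6 members had log2 fold changes between -0.97 (Smg9) and 0.54 (Smg8). The share of all genes whose libraries do not overlap is not given here for any comparison. Non-overlap of a member is therefore a description of its values and not a result beyond the background.

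A call in D1 and none in D2 does not show that the age changes differ, so that difference was tested. No member passed, beside 1.77% of all genes called, and 2 of 9 had an unadjusted p under 0.05, as did 16.9% of all genes. The difference, D1 minus D2, was 2.41 on the log2 scale with an SE of 0.70 for Upf3b (edgeR adjusted p = 0.0783). For Upf2 it was 1.24 with an SE of 0.37 (edgeR adjusted p = 0.0843). DESeq2, which called 7.32% of all genes, called both, with adjusted p-values of 0.00222 for Upf3b and 0.0246 for Upf2, the lowest over alternatives that ran up to 0.170 and 0.240. For Smg5, which passed with age in D1 and did not pass in D2, the difference was -0.77 with an SE of 0.50 (edgeR adjusted p = 0.483).

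Between D1 and D2 neurons at 42 days no member passed, beside 0.409% of all genes called. One member, Upf3b, had an unadjusted p under 0.05, as did 6.01% of all genes, with a mean of 6.42 ± 2.51 TPM in young D1 and 15.3 ± 6.54 TPM in young D2 (SD, n = 4 each) and a log2 fold change of -1.13 (edgeR adjusted p = 0.732), and DESeq2, with 1.34% of all genes called, called 0. The other 8 lay between -1.42 (Smg9) and 0.38 (Upf1). Among them Upf2 did not overlap, at 26.25 to 39.27 TPM in young D1 and 43.06 to 57.76 TPM in young D2, with a log2 fold change of -0.42 (edgeR adjusted p = 0.999). At 2 years no member passed either, beside 9.6% of all genes called, and 5 of 9 had an unadjusted p under 0.05, as did 25.4% of all genes. Upf3b averaged 35.2 ± 7.14 TPM in old D1 and 15.9 ± 2.83 TPM in old D2, with no overlap and a log2 fold change of 1.28 (SE 0.50, edgeR adjusted p = 0.105). Upf2 had a log2 fold change of 0.81 (SE 0.26, edgeR adjusted p = 0.0533) and Smg1 one of 0.94 (SE 0.34, edgeR adjusted p = 0.0905). Without old D1 replicate 4 the value of Smg1 was 0.48 (edgeR adjusted p = 0.339). On the lower side were Smg5 at -0.90 (edgeR adjusted p = 0.118) and Smg6 at -0.89 (edgeR adjusted p = 0.160). Smg5 did not overlap, at 9.15 to 23.63 TPM in old D1 and 26.13 to 40.61 TPM in old D2. Upf1 did not overlap either, at 0.01 to 5.23 TPM in old D1 and 5.47 to 11.44 TPM in old D2 (edgeR adjusted p = 0.352). DESeq2, with 17.2% of all genes called, called Upf2 (adjusted p = 0.0182, with alternatives up to 0.192) and Upf3b (adjusted p = 0.0158, with alternatives up to 0.288). Upf1, Upf3a, Smg8 and Smg9 lay between -1.41 (Upf1) and 0.82 (Smg8). Non-overlap is again a description, with no share over all genes to set beside it.

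The old D1 libraries stood apart from the other 12 in 3 measures of the whole library. Their fragment length, estimated as the median over genes of length minus RSEM's effective length, was 151.2 to 164.4 bases, against 170.3 to 195.4 elsewhere. The gene Gm42418 held 4.45% to 5.41% of their counts, against 9.76% to 18.2% elsewhere, and the 10 most counted genes held 11.98% to 13.2%, against 16.6% to 25.3% elsewhere. Ranges overlapped for the number of genes with at least 1 count, 10364 to 13694 in old D1 and 12770 to 14992 in the other groups. Assigned fragments, 34844870 to 50379824 in old D1, lay within the 27484038 to 70903004 of the other groups. The receptor genes went with the labels: Drd1 averaged 418 ± 130 TPM in old D1, 284 ± 36.7 in young D1, 67.6 ± 16.7 in old D2 and 8.31 ± 2.54 in young D2, while Drd2 averaged 23.9 in old D1, 19.9 in young D1, 3529 in old D2 and 3116 in young D2. The 6 markers of D1 neurons summed to 4597 to 7381 TPM in old D1 and 2459 to 3229 in young D1, while the 6 markers of all spiny projection neurons summed to 2999 to 3974 TPM in old D1 and 5530 to 7951 in young D1. Astrocyte markers summed to 16.8 to 25.2 TPM in old D1 and 8.93 to 20.6 in young D1, oligodendrocyte markers to 75.6 to 190.5 in old D1 and 127 to 290 in young D1, and GABAergic interneuron markers to 30.5 to 546 in old D1 and 62.1 to 140 in young D1. Of 6 microglia markers, 5 were under 1 TPM in all old D1 libraries and in all young D1 libraries. In D2 libraries the markers of D1 neurons summed to 411 to 656 TPM in old and 133 to 154 in young. Astrocyte markers summed to 25.2 to 39.4 TPM in old D2 and 1.83 to 4.62 in young D2. Ranges overlapped for the markers of D2 neurons, at 5455 to 11479 TPM in old D2 and 7615 to 8849 in young D2. They also overlapped for oligodendrocyte markers, at 247 to 353 TPM in old D2 and 158 to 267 in young D2. The part of these measures in the age changes of D1 and D2 was not tested.

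The members differ in the GC content of their main isoforms, around a median of 49.9% over all genes tested. Upf3b (42.5% GC), Upf2 (43.5%) and Smg1 (44.9%) were the lowest in GC content and had positive D1 age changes. Smg5 (56.5%) and Upf1 (57.9%) had negative ones, while Smg9, the highest in GC content (60.3%), was near 0. Smg8 (50.2%) and Upf3a (52.9%) lay above the median and had positive changes, of 1.62 and 0.61. Smg6 (51.9%) lay above it with a change of -0.03. When a smooth trend over GC content and length was removed from every library, Upf3b was still called, at 1.81 (edgeR adjusted p = 0.0381). Upf2 then had 0.81 (edgeR adjusted p = 0.0722) and Smg5 had -0.84 (edgeR adjusted p = 0.138), and neither was called. The direction of all 3 was kept. With only the 2 D1 groups in the fit none of the 3 was called (edgeR adjusted p = 0.0798 for Upf2, 0.104 for Smg5 and 0.112 for Upf3b). Over all 16 alternative analyses, Upf3b was called in 15, with log2 fold changes of 1.81 to 2.48, Upf2 in 14, with 0.81 to 1.32, and Smg5 in 13, with -1.81 to -0.84.

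**Figure D3:**
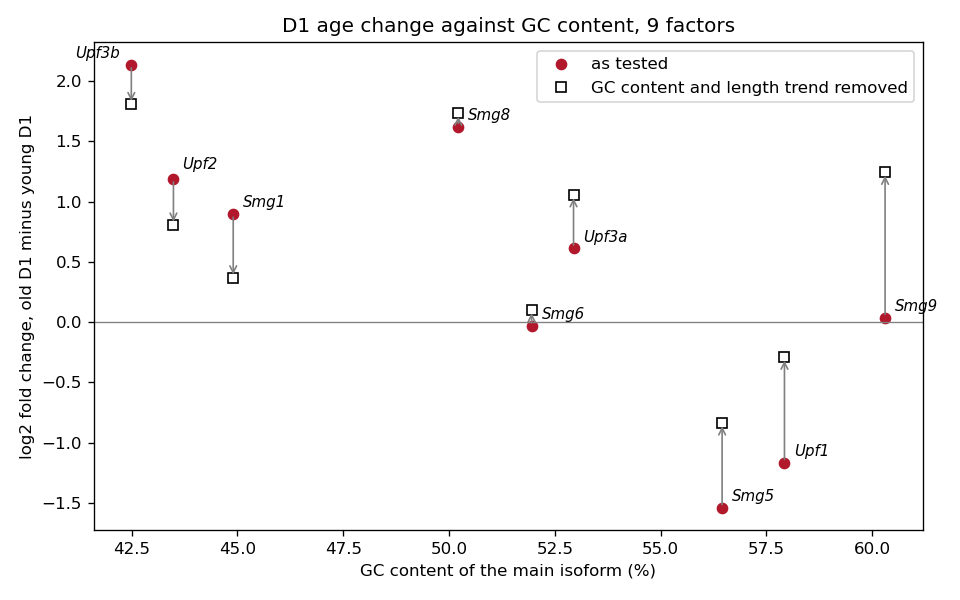
Log2 fold change between old D1 and young D1 against the GC content of each factor's main isoform, as tested (filled circles) and after the trend over GC content and length was removed (open squares). Upf3b at 42.5% GC goes to 1.81 from 2.14 and Smg5 at 56.5% goes to -0.84 from -1.54.

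The 9 members have 30 isoforms in the tables, and isoform values, which RSEM divides by a model, are uncertain. Upf3b-201, the full-length coding isoform, had 30.64, 22.98, 28.36 and 28.66 TPM in old D1, against 5.06, 10.19, 5.18 and 5.26 TPM in young D1, with the same separation as the whole gene. The short coding isoform Upf3b-202 (780 bases) had 14.51, 11.60, 0 and 3.92 TPM in old D1 and was 0 in all young D1 libraries. In D2 it had 0, 6.43, 2.89 and 4.32 TPM in old and was 0 in all young libraries. It was thus above 0 in 6 libraries, all from old mice. Smg8-202, a coding isoform of 1163 bases, had 0, 21.21, 9.38 and 53.53 TPM in old D1 and 2.86, 0, 3.50 and 0 TPM in young D1. The spread of Smg8 in old D1 lay mostly in this isoform.

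Smg6 and Smg1 each have 1 isoform that the annotation types as an NMD target. The last 30 coding bases of each, with the stop codon in capitals, are set beside those of the full-length isoform to show where reading ends. They were read from GRCm38.
Smg6-201: gccttccttacgtgggcccaggtgggcTGA
Smg6-202: gatgatggagacattccctgcagtggcTGA
Smg1-201: ctgtatgaaggttggacagcttgggtgTGA
Smg1-204: atgacagagaccgaagactggctactgTAA
The stop of Smg6-201 is at chr11:75162948-75162950 (plus strand), after the last exon junction, and that of Smg6-202 is at chr11:74990094-74990096, 1379 bases before it. The stop of Smg1-201 is at chr7:118135541-118135543 (minus strand), and that of Smg1-204 at chr7:118210780-118210782 is 10397 bases before the last junction. Smg1-204 has 12147 bases in the annotation used for the stop and 12340 as quantified, so the 2 structures are not identical. A stop well before the last junction is known to mark a transcript for NMD. Smg6-202 had 0, 10.65, 0 and 12.03 TPM in old D1 and was above 0 in 1 young D1 library (1.63 TPM), while it was 0 in all 8 D2 libraries. Smg6-201 had 9.12, 1.01, 9.67 and 0 TPM in the same old D1 libraries, so the libraries high in one were low in the other. Smg1-204 was 0 in all old D1 libraries. It was above 0 in 5 libraries of the other groups and reached 6.33 TPM in a young D2 library. Genes on the opposite strand overlap Smg6 (Srr among them), Smg1, Smg8 and Upf1, and strand use in counting is not given in the sources used here.

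**Figure D4:**
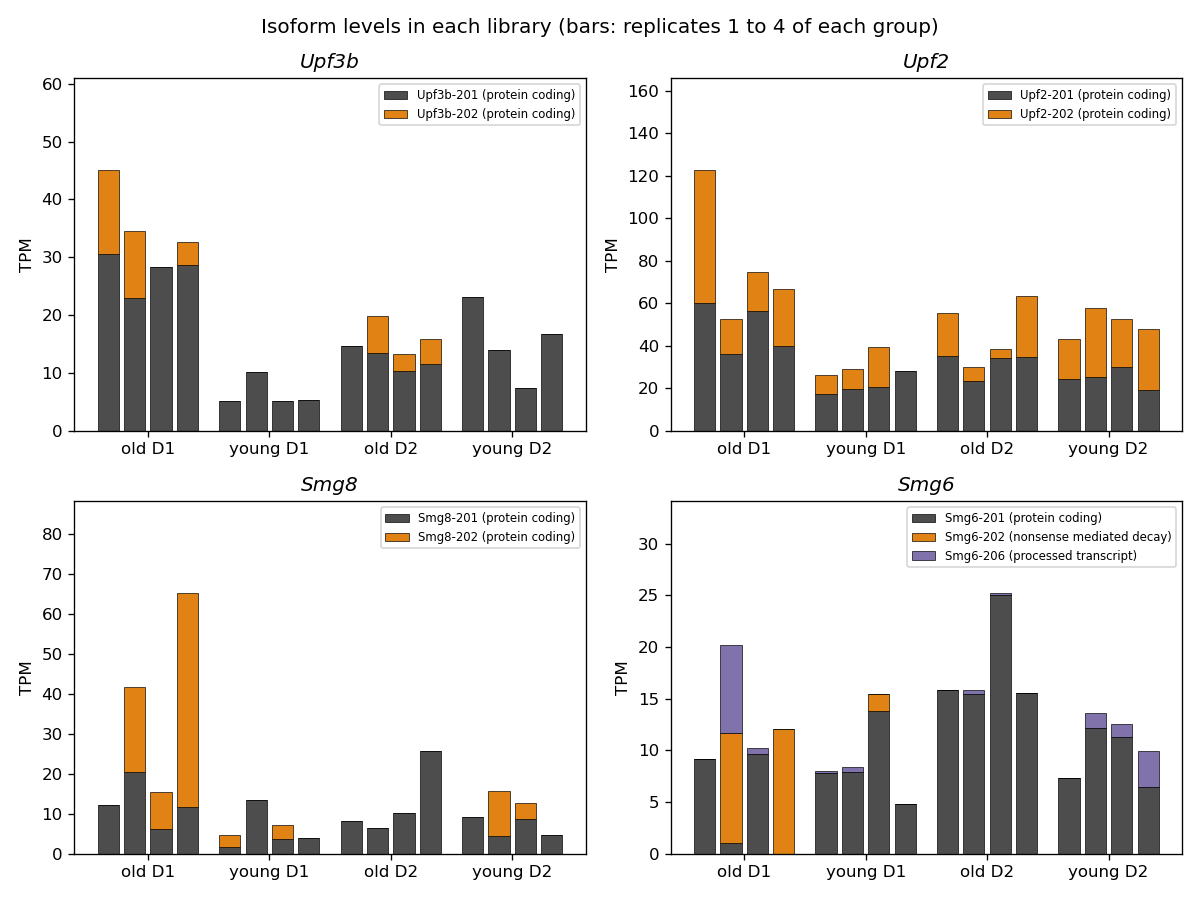
TPM of the isoforms of Upf3b, Upf2, Smg8 and Smg6, as stacked bars with 1 bar per library (replicates 1 to 4 from left to right in each group). Upf3b-202 is seen in old libraries only, and Smg6-202 fills most of the Smg6 bar in 2 old D1 libraries (10.65 and 12.03 TPM).

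Annotated targets of the pathway were looked at through the share of TPM held by isoforms of this type in all protein-coding genes, 4287 isoforms of 2813 genes. How this share relates to the activity of NMD was not tested. The share was 2.64, 2.34, 2.35 and 2.94% in old D1, against 1.89, 2.02, 2.11 and 2.00% in young D1. All 4 old D1 libraries were above all 4 young D1 libraries, with a difference of 0.561 percentage points (exact two-sided permutation test, p = 0.0286, the smallest that 4 against 4 allows, adjusted p = 0.0571 over 4 comparisons). Old D2 libraries averaged 1.94 ± 0.0909% and young D2 libraries 1.90 ± 0.0807% (SD, n = 4 each), with a difference of 0.0392 points (exact permutation p = 0.486). Old D1 exceeded old D2 by 0.631 points (exact permutation p = 0.0286, adjusted 0.0571), and young D1 exceeded young D2 by 0.110 points (exact permutation p = 0.143, adjusted 0.190).

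Other isoform types that code for no full protein moved alongside in D1. Retained-intron isoforms held 6.28 ± 0.494% in old D1 and 4.91 ± 0.349% in young D1, and processed transcripts held 7.70 ± 1.07% and 5.63 ± 0.341% (SD, n = 4 each). Fewer isoforms of the NMD type were above 0 in old D1 (604 to 1048) than in most libraries of the other groups (1018 to 1384), and of their genes 734 had a higher and 1066 a lower mean in old D1 than in young D1. The part of these measures in the share was not tested. Among the 10 genes with the most TPM in such isoforms is Srsf2, a splicing factor that keeps its own level in check through NMD of its transcripts. Its NMD-type isoforms had 594 to 809 TPM in old D1 and 206 to 315 TPM in young D1, with no overlap. They had 180 to 330 TPM in old D2 and 114 to 379 TPM in young D2. Ppia, a prolyl isomerase, held the most, at 1827 to 2730 TPM in old D1 and 1664 to 2233 TPM in young D1, with overlap. Srsf2 alone among the 10 did not overlap between the D1 ages. Of all 2813 genes with such isoforms, 33 lay wholly above and 67 wholly below in old D1, so its non-overlap is a description. Hras, Pfdn5 and Mrps14 had lower means in old D1 than in young D1 (181 against 327, 174 against 225 and 124 against 215 TPM), and the others had higher ones.

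**Figure D5:**
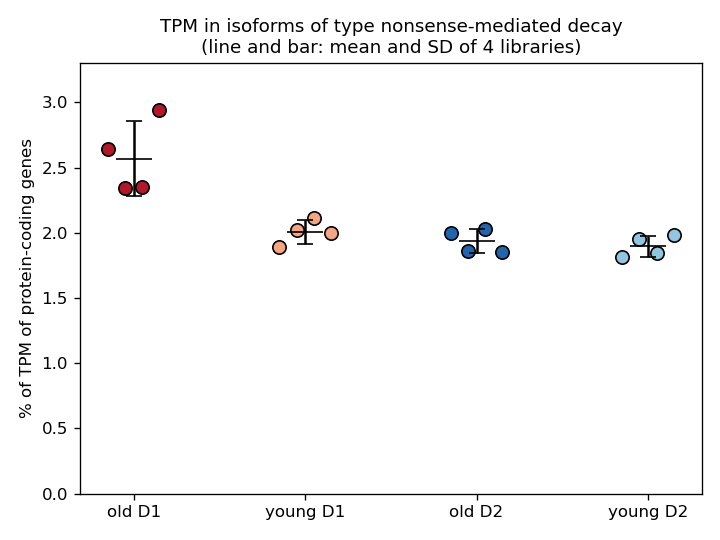
Share of the TPM of protein-coding genes held by isoforms annotated as NMD targets, in percent, with 1 point per library and the mean and SD of 4 libraries. The old D1 points lie between 2.34 and 2.94%, above all points of the other groups, which lie between 1.81 and 2.11%.

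Lists of 70 other genes of the pathway, of which 68 were tested, gave 6 higher and 3 lower in old D1 than in young D1, or 13.2%, beside the 10.8% of all genes given above. That share is near the background. In the exon junction complex (9 genes) Rnps1, a peripheral component, was lower, with 51.7 ± 17.1 TPM in old D1 and 98.5 ± 20.8 TPM in young D1 (SD, n = 4 each) and a log2 fold change of -1.04 (edgeR adjusted p = 0.0156). Among 8 further NMD factors, Pnrc2, a decapping cofactor, was higher at 1.65 (edgeR adjusted p = 0.0369). Among 5 termination factors, Gspt1, which encodes the release factor eRF3A, was higher at 1.26 (edgeR adjusted p = 0.0195), with 110 ± 36.0 TPM in old D1 and 38.1 ± 13.1 TPM in young D1.

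Of 10 genes for the maturation of SMG1 and related kinases, Tti1, a cochaperone of these kinases, and Mtor, itself such a kinase, were higher at 2.02 and 1.62 (edgeR adjusted p = 0.0432 and 0.0431). Ruvbl2, an ATPase of the same assembly pathway, was lower at -2.42 (edgeR adjusted p = 0.0185). Of 4 genes of protein phosphatase 2A, which acts on UPF1, Ppp2ca, a catalytic subunit, was higher at 1.01 (edgeR adjusted p = 0.00681), with 169 ± 55.2 TPM in old D1 and 81.0 ± 14.6 TPM in young D1. It was the gene of these lists whose age changes differed between D1 and D2, by 1.30 (edgeR adjusted p = 0.0394), a call made in 9 of 23 alternatives, whose adjusted p ran up to 0.0999. None of 21 mRNA decay enzymes passed edgeR's test in D1 with age, where 5 had an unadjusted p under 0.05, beside 26.9% of all genes, and DESeq2 called 3, beside the 18.7% given above (median log2 fold change 0.31, beside -0.06 for all genes).

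Of 13 genes known as NMD targets, 12 were matched in the tables and 11 were tested, and 1 was higher and 1 lower in old D1. Gas5, a noncoding RNA whose spliced form is degraded by NMD, averaged 2170 ± 848 TPM in old D1 and 1032 ± 156 TPM in young D1 (log2 fold change 1.03, edgeR adjusted p = 0.0188). The immediate early gene Arc, whose mRNA carries exon junctions after its stop codon, averaged 12.8 ± 3.80 TPM in old D1 and 37.2 ± 13.4 TPM in young D1 (log2 fold change -1.66, edgeR adjusted p = 0.0396). The median of the tested targets was 0.03. With age in D2, and between D1 and D2 at 42 days, 0 of the 68 listed genes were called by edgeR or DESeq2, with 3 with age in D2 and 1 at 42 days at an unadjusted p under 0.05 in edgeR, beside 5.75% and 6.01% of all genes. Old D1 against old D2 gave 7 higher and 2 lower, again 13.2%, beside 9.6% of all genes. Among them were Stau2, an RNA-binding protein of dendritic transport, at 0.98 (edgeR adjusted p = 0.0207) and Parn, a poly(A) exonuclease, at 1.57 (edgeR adjusted p = 0.0297). With age Stau2 was at 0.03 in D1 and -0.87 in D2, neither called. Gas5 (1.05), Pnn (0.99), Ppp2cb (0.94), Cnot7 (0.90) and Ppp2ca (0.90) were also higher. Rnps1 (-0.98) and Ruvbl2 (-2.10) were the lower ones. Stau2 was called in 9 of 16 alternatives, Parn in 7 and the others in 3 (Cnot7) to 13 (Ppp2cb). Of the 9 calls with age in D1, Ppp2ca was called in 14 of 16 alternatives, Rnps1 and Ruvbl2 in 12, Gas5 and Gspt1 in 11, Pnrc2 in 9, Mtor in 6 and Arc and Tti1 in 5. After GC content and length were corrected for, only Mtor of these 9 was still called (edgeR adjusted p = 0.0230). The edgeR adjusted p of the others then ran from 0.0545 (Tti1) to 0.592 (Arc, log2 fold change -0.50). With only the D1 groups in the fit none was called (edgeR adjusted p = 0.0808 for Ppp2ca up to 0.166 for Tti1). With voom the log2 fold change of Mtor was 0.80 (adjusted p = 0.357 in limma).

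Genes most like the called members over all 16 libraries were found by the mean absolute difference of centred log2(TPM + 1), among 9800 genes with a mean of at least 5 TPM. For Upf2 these were Ankrd17 (0.258), Ccdc181 (0.259) and Nrd1 (0.267). For Upf3b they were Kif5b (0.339), Cnksr2 (0.344) and Bod1l (0.347), and for Smg5 they were Dusp3 (0.277), Smarcd1 (0.295) and Rhot2 (0.303). The genes nearest to Upf2 and Upf3b had their highest mean in old D1, as with Ankrd17 at 128 TPM in old D1 and 52.2 TPM in young D1. Those nearest to Smg5 had their lowest there, as with Dusp3 at 49.1 TPM in old D1 and 126 TPM in young D1. Both patterns follow from how these genes were picked, by likeness to the member in the same libraries, and are no separate result.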

How the data were processed

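The deposited tables give, per library, RSEM expected counts and TPM for genes and isoforms, with lengths in bases, per the file headers. Per the submitters' processing notes, the authors ran STAR 2.5.1b and RSEM 1.2.20 on build mm10. The NuGEN Ovation V2 kit was used to amplify cDNA for sequencing, according to the labels. Neither annotation release nor strand setting is given in the sources used here. Ribosome profiling samples of NIH-3T3 cells (3 samples) were not analysed here.

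Expected counts were rounded to whole numbers (20.0% of nonzero values were not whole). Genes passing edgeR's filterByExpr were fitted with TMM scaling and robust quasi-likelihood tests (edgeR 4.0.16, limma 3.58.1, R 4.3.3) with 1 mean per group over 16 libraries, and p-values were adjusted by Benjamini-Hochberg over 13926 genes. The biological coefficient of variation was 97.8%. Expected counts do not count molecules, since the kit carries no molecular identifiers. DESeq2 1.42.0, other scalings, filters and units, voom with library weights, a GC content and length correction (mgcv 1.9.3) and leaving out each library were tried. Names, types and positions are from GENCODE M21, matched for 37693 of 39017 genes and 91320 of 94647 isoforms, with equal lengths for 86.6% of the matched isoforms. Among those that differ is Upf3a-201, with 1402 bases as quantified and 2057 in GENCODE M21. The fits were tested on simulated counts with less spread between libraries than the common spread of these data. That test therefore does not show how well changes are found here.

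All 9 members are named in every comparison or summarised by range. Of other pathway genes, up to 4 called members per list and comparison were eligible to be named, and those called are named. The Upf3a to Upf3b ratio, the motif and Srsf2 were picked after their values or sequences were seen. The members and lists were chosen with earlier results of these data known. Replicate numbers follow the order of the records.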

Additional observations from a re-analysis of the deposited data

Results flagged for a closer look

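Values of 3 groups held 1 library far from the other 3, by Dixon's criterion, out of 44 groups of 4 libraries examined, and chance alone flags about 1 in 20. Upf3b in young D1 had its highest library at 10.19 TPM, with the others at 5.06 to 5.26 TPM, and without that library the gene was still called higher in old D1. Smg6 in old D2 had its highest library at 25.32 TPM, with the others at 15.57 to 15.80 TPM. The ratio of Upf3a to Upf3b in young D2 was highest at 3.97 in 1 library, with a median of 1.36 over the group.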

How the results depend on the processing

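No paired analysis was possible because the labels give no replicate number or other pairing shared between groups. Of 783 member values under the alternatives, 725 kept their direction and side of the threshold, 6 lost a call, 9 gained one and 43 changed sign, and in all 43 the reported value was within 1 SE of 0 and not called.

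Members called with age in D1 (3 as reported) were 0 when only the compared groups were fitted, with edgeR adjusted p-values of 0.0798 for Upf2, 0.104 for Smg5 and 0.112 for Upf3b, and 1 with the GC content and length trend removed. Voom with library weights lost Smg5 (adjusted p = 0.195). DESeq2 called 2 members for the difference of age changes and 2 between D1 and D2 at 2 years, where the reported count was 0 for each. Leaving out each library gave 0 to 1 called between old D1 and old D2 (Upf2 without old D1 replicate 2, Smg1 without old D1 replicate 3). The test of the difference cannot be given with only 2 groups. Of the 68 listed genes DESeq2 called 16 with age in D1 and 14 between old D1 and old D2, where edgeR called 9 in each, and 3 for the difference of age changes, where edgeR called 1. DESeq2's share of all genes was also higher, at 18.7%, 17.2% and 7.32% in these comparisons. The median log2 change of all genes in D1 with age moved to -0.15 (TPM + 1), -0.33 (TPM + 0.1) and -0.38 (voom), against -0.06 as reported.

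Sign changes were as follows, on the log2 scale. With log2(TPM + 1) and log2(TPM + 0.1), Smg6 in old D1 minus young D1 was 0.49 and 0.54, Smg9 was -0.30 and -0.33 there, 0.115 and 0.14 in old D2 minus young D2 and -0.42 and -0.47 for the difference of age changes, and Upf3b was 0.13 and 0.15 in old D2 minus young D2. With voom, Smg9 was -0.28 in old D1 minus young D1 and Smg6 was 0.028 in young D1 minus young D2. With the GC content and length trend removed, Smg6 was 0.10 in old D1 minus young D1 and 0.050 in young D1 minus young D2, Smg1 was -0.071 in old D2 minus young D2 and Smg9 was 0.74 in old D1 minus old D2. Leaving out 1 library at a time gave, for old D1 minus young D1, -0.20 to 0.30 (Smg6) and -0.63 to 0.39 (Smg9). For old D2 minus young D2 it gave -0.14 to 0.36 (Smg1), -0.031 to 0.75 (Smg8), -0.14 to 0.10 (Upf2), -0.0073 to 0.31 (Upf3a) and -0.50 to 0.0095 (Upf3b). For young D1 minus young D2 it gave -0.10 to 0.40 (Smg1), -0.47 to 0.074 (Smg5), -0.34 to 0.16 (Smg6) and -0.93 to 0.0011 (Smg8), and for old D1 minus old D2 -1.09 to 0.038 (Smg9). The share of NMD-type isoforms in old D1 minus young D1 was 0.479 to 0.653 points under its 4 other definitions, and in old D2 minus young D2 was -0.00467 points with expected counts in place of TPM. The causes were not tested.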
